A study of Mus musculus with 32 samples.

Results

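Transcripts of 8 genes that write, maintain or erase DNA methylation were followed in the mouse embryonic stem cell line E14: Dnmt1, Dnmt3a, Dnmt3b, Dnmt3l, Uhrf1, Tet1, Tet2 and Tet3. They were taken by gene name from 5 deposited tables of normalised counts and make up 8 of the 17440 genes listed in any table. All 8 were listed in every table, and all 8 passed the filter used for testing, a mean of at least 10. The study measured RNA from 32 libraries in 16 groups of 2 after degradation of CTCF, a zinc-finger protein found at the bases of chromatin loops, or RAD21, a subunit of the cohesin ring.

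In 3 groups CTCF AID cells, whose CTCF carries an auxin-inducible degron (a tag that sends the protein for destruction when auxin is added), had 0, 12 or 24 h of 500 uM indole-3-acetic acid (IAA). In 3 groups RAD21 AID cells had 0, 12 or 24 h of 1 uM 5-Ph-IAA. In 2 groups CTCF AID cells labelled as serum cultures had 0 or 12 h of IAA. In 2 groups CTCF AID cells carried a hairpin against Chd4, which encodes the remodelling ATPase of the NuRD repressor complex, or a control hairpin. For the hairpin libraries the labels give no IAA treatment. In 6 groups CTCF AID cells carried an overexpression control, wild-type CTCF or mutated CTCF, each without and with 12 h of IAA. Every control thus carries a degron tag too, on RAD21 in the RAD21 AID cells and on CTCF in the rest. No group is of untagged cells given auxin, so a response to auxin itself cannot be told apart from loss of the tagged protein. Loss of CTCF or RAD21 below names these auxin treatments, which also differ in compound and dose between the CTCF and the RAD21 AID cells. The mutation, the number of clones, and the length of the hairpin treatment are not given in the sources used here.

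Several labels limit these groups. The growth protocol gives one serum-free medium, with leukaemia inhibitory factor, the MEK inhibitor PD0325901 and the GSK3 inhibitor CHIR99021, for all samples, although 4 libraries are labelled serum. Titles and treatment labels conflict for 4 libraries: those titled mutated CTCF without IAA are labelled as given IAA for 12 h, and those titled wild-type CTCF with IAA are labelled untreated. The groups here follow the titles, and the values below do not assign them. No label says that the 2 libraries of a group came from separate cultures, so the p-values measure the spread between these samples, which may be technical. Each mean ± SD below has n = 2. For groups of 2, the smallest two-sided p of an exact permutation test is 0.333, so the calls rest on limma, which borrows the spread of all genes.

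DNA methylation in mammals sits mostly on cytosines followed by guanine (CpG). DNMT3A and DNMT3B place it on unmethylated DNA, and DNMT3L, which has no catalytic activity of its own, binds and stimulates them. After replication UHRF1 recognises DNA methylated on one strand and brings in DNMT1, which copies the mark to the new strand. TET1, TET2 and TET3 oxidise methylated cytosine, the first step of its removal. Mouse embryonic stem cells grown in serum are known for high methylation, and cells in serum-free medium with inhibitors of MEK and GSK3 for low methylation.

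Promoter sequences of 4 members are shown because these genes span the patterns below. Dnmt3l had the widest range of levels and Uhrf1 had the largest fall that passed a test. Dnmt3a changed in opposite directions after CTCF loss in the serum-free and the serum table, and Tet3 passed no test after loss of CTCF or RAD21. Dnmt3a and Tet3 are also the only members with a match to the CTCF motif core given below. Of several starts, the one shown held the most CpG (Dnmt3l and Uhrf1) or that match (Dnmt3a). Each sequence runs from 250 bases before to 50 bases after an annotated start in RefSeq (GRCm38.p6), 5′ to 3′ on the gene's strand. For Dnmt3l (start 1 of 3, chr10:78042037-78042336, plus strand) and Uhrf1 (start 2 of 2, chr17:56304063-56304362, plus strand) the capitals mark CpG dinucleotides.
Dnmt3l: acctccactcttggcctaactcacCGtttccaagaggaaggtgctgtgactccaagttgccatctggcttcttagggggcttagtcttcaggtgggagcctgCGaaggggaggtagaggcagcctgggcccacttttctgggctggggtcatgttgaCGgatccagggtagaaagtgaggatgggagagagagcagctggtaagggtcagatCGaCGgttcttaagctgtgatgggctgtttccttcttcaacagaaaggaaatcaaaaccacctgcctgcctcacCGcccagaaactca
Uhrf1: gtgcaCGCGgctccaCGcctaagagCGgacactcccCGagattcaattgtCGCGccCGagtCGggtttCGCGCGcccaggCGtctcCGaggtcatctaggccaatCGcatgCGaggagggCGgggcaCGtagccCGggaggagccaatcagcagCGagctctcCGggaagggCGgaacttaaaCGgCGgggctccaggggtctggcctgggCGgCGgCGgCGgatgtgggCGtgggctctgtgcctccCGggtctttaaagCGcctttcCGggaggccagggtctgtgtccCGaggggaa
The Dnmt3l window held 6 CpG and this Uhrf1 window 33, beside a median of 7 over 32851 promoters of 27025 genes. The other Dnmt3l starts held 4 and 3 CpG, and the other Uhrf1 start held 12. Tet2 had the most, 57, and 99.9% of promoters had that number or fewer. Dnmt3b held 30, Tet3 22 and Tet1 17. The 3 Dnmt1 starts held 2, 12 and 33, and the 3 Dnmt3a starts 46, 47 and 18. The next pair of windows shows matches to a core of the CTCF motif, CC followed by any 3 bases, AG, any 2 bases and GGC, searched on both strands.
Dnmt3a: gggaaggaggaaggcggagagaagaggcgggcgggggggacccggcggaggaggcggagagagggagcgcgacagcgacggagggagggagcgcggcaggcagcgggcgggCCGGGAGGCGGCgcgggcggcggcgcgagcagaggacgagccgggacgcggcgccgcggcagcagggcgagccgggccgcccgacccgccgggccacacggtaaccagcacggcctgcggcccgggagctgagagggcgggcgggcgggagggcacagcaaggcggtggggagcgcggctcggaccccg
Tet3: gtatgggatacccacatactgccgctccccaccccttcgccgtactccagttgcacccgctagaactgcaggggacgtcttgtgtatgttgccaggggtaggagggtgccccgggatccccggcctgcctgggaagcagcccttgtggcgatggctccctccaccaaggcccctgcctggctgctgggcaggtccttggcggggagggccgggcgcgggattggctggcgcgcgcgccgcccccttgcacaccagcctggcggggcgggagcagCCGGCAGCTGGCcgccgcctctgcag
Here the capitals mark the match. In Dnmt3a (start 2 of 3, chr12:3806910-3807209, plus strand) it began at base 112, and in Tet3 (chr6:83441629-83441928, minus strand) at base 275. The windows of the other 6 members and the other Dnmt3a starts held no match, and 8.61% of all promoters held at least 1. A match is a run of letters and no measure of binding, and no CTCF binding data were analysed here.

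By GENCODE M21 on GRCm38, Dnmt1 (ENSMUSG00000004099.16) lies on chromosome 9 from 20907209 to 20959888, Dnmt3a (ENSMUSG00000020661.15) on chromosome 12 from 3806007 to 3914443, and Dnmt3b (ENSMUSG00000027478.15) on chromosome 2 from 153649450 to 153687730. Dnmt3l (ENSMUSG00000000730.13) lies on chromosome 10 from 78041947 to 78063622 and Uhrf1 (ENSMUSG00000001228.14) on chromosome 17 from 56303321 to 56323486. Tet1 (ENSMUSG00000047146.17) lies on chromosome 10 from 62804570 to 62908996, Tet2 (ENSMUSG00000040943.12) on chromosome 3 from 133463679 to 133545139 and Tet3 (ENSMUSG00000034832.15) on chromosome 6 from 83362373 to 83459084. Exons of a gene on the other strand overlap 2.24% of Dnmt3l exon bases (Aire), 0.799% of Dnmt3a (Dnmt3aos) and 0.255% of Tet2 (Gm42567), and whether counting used strand is not given in the sources used here.

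The libraries summed to between 15364584 and 19642332 normalised counts, and libraries of a group correlated across genes with r from 0.983 to 0.992. Markers of embryonic stem cells were all present, 7 of 7 in each table. In the hairpin table Chd4 stood at 9725 ± 281 with the control hairpin and 3554 ± 248 with the Chd4 hairpin. Overexpression of the mutated form gave a Ctcf level of 9650.4 ± 87.1 and that of the wild type 9378 ± 146, beside 4233 ± 140 in their control. Degron tags act on protein, so Ctcf and Rad21 transcripts do not measure the loss of either protein. Ctcf RNA rose after 12 h of IAA by 0.29 on the log2 scale in the CTCF degradation table, 0.33 in serum and 0.28 in the overexpression control (limma adjusted p = 0.00834, 0.000952 and 0.000112). Between the groups titled with and without IAA it differed by 0.28 in cells carrying the wild-type form and by 0.27 in those carrying the mutated form (limma adjusted p = 0.000221 and 0.000292). By the treatment label both groups of each of these pairs would have had the same treatment, and 21.4% and 16.2% of all genes were called between them.

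Dnmt3l had the widest range of the 8 genes over the 16 groups. Its mean normalised count went from 7.67 ± 2.29 in untreated serum-free CTCF AID cells to 5845 ± 24.0 with the Chd4 hairpin, a ratio of 762. Dnmt3b spanned 17.8-fold, from 444 ± 21.6 after 24 h of 5-Ph-IAA to 7916 ± 51.3 in untreated serum cells. Dnmt3a spanned 10.7-fold, from 459.7 ± 51.7 after 24 h of 5-Ph-IAA to 4940.3 ± 43.2 in serum cells after IAA. The de novo enzymes and their cofactor thus had the 3 widest ranges. Tet2 spanned 7.26-fold, Uhrf1 4.17-fold and Tet1 3.20-fold, while Tet3 (1.90-fold) and Dnmt1 (1.83-fold) had the narrowest. These ranges cross tables that were normalised separately, so they are descriptions without a test.

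**Figure D1:**
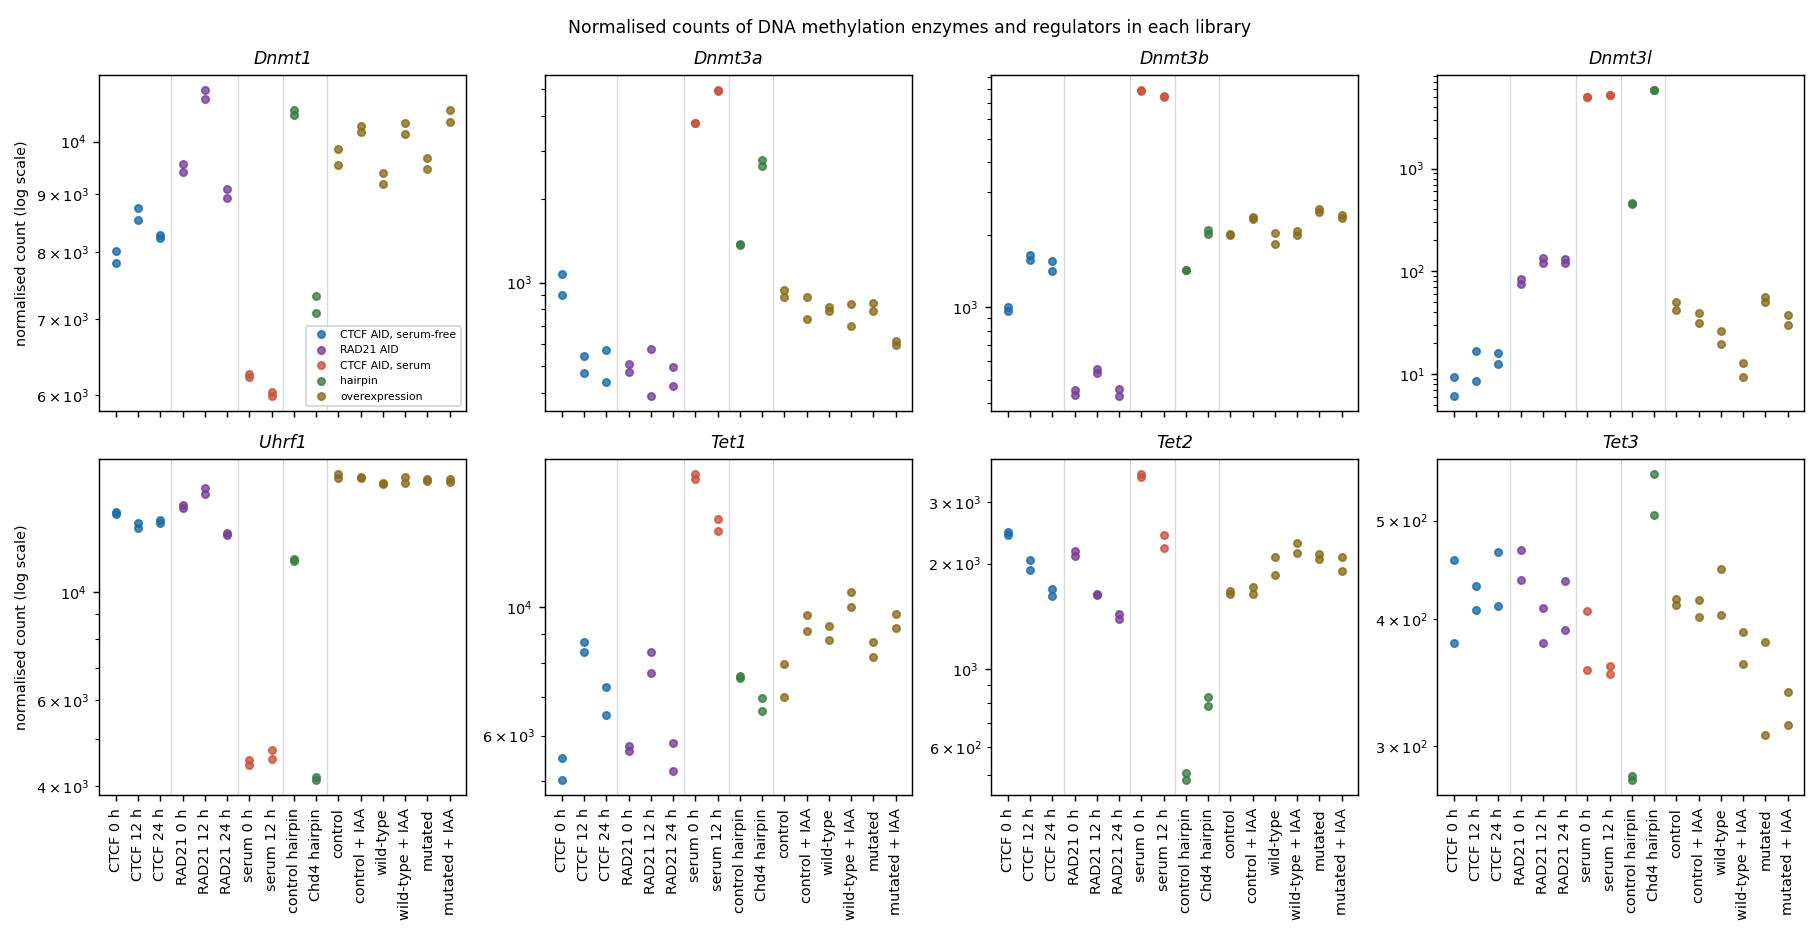
Normalised count (log axis) of each gene in every library, with 1 point per library and the 16 groups along the horizontal axis, coloured by table. Dnmt3l stands near 5000 in the serum libraries and above 5800 with the Chd4 hairpin, and below 500 in the other libraries.

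Per kilobase of exon, Uhrf1 was the most abundant of the 8 transcripts in every group except the serum groups and the Chd4 hairpin group. In untreated serum-free CTCF AID cells the order, in normalised counts per kilobase, was Uhrf1 at 3408 ± 13.5, Dnmt1 at 1075 ± 19.4, Tet1 at 340.2 ± 21.4 and Dnmt3b at 192 ± 5.50. Below these came Tet2 at 145 ± 1.86, Dnmt3a at 59.5 ± 7.26, Tet3 at 25.1 ± 3.31 and Dnmt3l at 2.57 ± 0.765. No neighbours in that order had overlapping libraries, but with the length of the longest transcript Tet2 came before Dnmt3b. In untreated serum cells the order began with Dnmt3l at 1669.6 ± 24.3, Dnmt3b at 1550.3 ± 10.05 and Tet1 at 1089 ± 15.9, and Uhrf1 followed at 1049.7 ± 15.9. With the longest transcript Uhrf1 came before Tet1 there. With the Chd4 hairpin Dnmt3l led at 1956 ± 8.02, ahead of Dnmt1 at 977 ± 22.5 and Uhrf1 at 974 ± 10.4, whose libraries overlapped.

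Serum and serum-free cultures were in different tables, so their untreated CTCF AID libraries are set side by side without a test. Dnmt3l stood at 5040.0 and 4937 in the serum libraries and at 6.06 and 9.29 in the serum-free libraries, a ratio of means of 650.2. Dnmt3b, at 7952 and 7879.6 in serum and 963 and 1002 in serum-free cells, had a ratio of 8.06. Dnmt3a, at 3763 and 3785 and 905 and 1076, had a ratio of 3.81. All 3 de novo genes were thus higher in both serum libraries than in either serum-free one. Uhrf1 went the other way, with 4519 and 4423 in serum and 14554 and 14472 in serum-free cells, 3.25 times lower in serum. Dnmt1 was closer, at 6267 and 6229 in serum and 7828 and 8030.0 in serum-free cells. The erasers ranged from a ratio of 3.20 for Tet1 and 1.46 for Tet2 to 0.913 for Tet3, whose libraries overlapped between the cultures. The share of all genes whose libraries did not overlap between these cultures was not computed, so a lack of overlap does not set the members apart. Ratios computed on shares of each library's total moved little, to 647 for Dnmt3l and 8.02 for Dnmt3b. Summed fibroblast markers (4 of 5 genes listed in the serum table and 2 of 5 in the serum-free table) were 618 to 655 in untreated serum and 34.8 to 35.5 in untreated serum-free libraries, none of the listed ones at 0. Markers of formative or primed epiblast (4 and 3 of 5 listed) summed to 726 to 766 in serum and 83.0 to 85.3 in serum-free libraries. Trophoblast markers (4 and 3 of 5) summed to 447 to 463 and 266 to 277, primitive endoderm markers (4 and 2 of 5) to 126 to 132 and 62.3 to 76.9, and 2-cell-like markers (2 and 3 of 5) to 27.6 to 48.9 and 192 to 199. Embryonic stem cell markers (7 of 7 in both) summed to 58374 to 58827 and 61398 to 61976, with Nanog at a mean of 5195 and 15722. No listed marker was at 0 in both libraries of either group, sums over different numbers of genes are not like for like, and the part of these markers in the differences was not tested. In bulk RNA a change in the share of cells of a type cannot be told apart from a change in RNA per cell.

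Several other pathway genes, chosen after their values were seen, are set side by side in the same way. Lin28a, an RNA-binding protein of the recruitment list, had a mean of 6393 in serum and 166 in serum-free cells. Prdm14, a repressor of the de novo enzymes, stood at 182 in serum and 966 in serum-free cells. Dppa3, which displaces UHRF1 from chromatin, was at 58.0 and 153. The other antagonists went the other way or were close, with Kdm2b at 1702 in serum and 998 in serum-free cells (ratio 1.71) and Cxxc1 at 629.9 ± 59.4 and 585 ± 48.9 (ratio 1.08). Among germline genes whose promoters are silenced by methylation, Dazl stood at 96.7 in serum and 2608 in serum-free cells and Hormad1 at 87.7 and 1077, while Ddx4 stood at 309 and 147 and Mael at 146 and 60.3. The germline list was therefore not uniformly lower in the serum table.

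Dnmt3l also differed between the serum-free tables before any auxin. The untreated libraries held 6.06 and 9.29 in the CTCF degradation table, 49.9 and 41.6 in the overexpression control, 83.2 and 75.9 in the RAD21 AID cells and 464 and 455 with the control hairpin. No 2 of these groups overlapped. The labels put the first, second and last of these in CTCF AID cells, and which culture history separates them is not given in the sources used here.

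Loss of CTCF in serum-free cells was the first comparison. After 12 h of IAA, 5 of the 8 genes were called at an adjusted p under 0.05, beside 17.8% of the 13699 genes tested (9.39% higher and 8.40% lower). Dnmt3b and Tet1 rose, Dnmt3a and Tet2 fell, and Dnmt1 rose slightly. The median log2 difference of the 8 was 0.07 beside 0.00053 over all genes tested. After 24 h 4 of the 8 were called, beside 22.5% of all genes (11.7% higher and 10.8% lower). The 12 h and 24 h comparisons share the untreated libraries.

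The 2 de novo enzymes moved in opposite directions. Dnmt3a stood at 905 and 1076 in untreated libraries, 474 and 543 at 12 h and 569 and 437 at 24 h. Each treated library was below both untreated ones, and the 12 h and 24 h libraries overlapped. Its log2 difference was -0.96 ± 0.15 (SE; limma adjusted p = 0.00628) at 12 h and -0.98 ± 0.15 (SE; limma adjusted p = 0.00459) at 24 h. Dnmt3b stood at 963 and 1002 untreated, 1572 and 1648 at 12 h and 1413 and 1563 at 24 h, higher in all 4 treated libraries. Its log2 difference was 0.71 ± 0.070 (SE; limma adjusted p = 0.00100) at 12 h and 0.60 ± 0.070 (SE; limma adjusted p = 0.00161) at 24 h. The cofactor Dnmt3l was near the floor of the table, at 6.06 and 9.29 untreated, 8.49 and 16.6 at 12 h and 12.6 and 16.1 at 24 h. Its 12 h libraries overlapped the untreated ones, and neither difference passed the test (limma adjusted p = 0.456 and 0.268). The 24 h interval, -0.33 to 2.01 on the log2 scale, was wide.

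The maintenance pair moved little. Dnmt1 had 7828 and 8030.0 untreated, 8548 and 8741 at 12 h and 8241 and 8291 at 24 h. The groups did not overlap, but the 12 h difference was only 0.12 ± 0.034 (SE; limma adjusted p = 0.0453), and the 24 h difference, 0.060 ± 0.034, did not pass (limma adjusted p = 0.246). Uhrf1 had 14554 and 14472 untreated, 13494 and 13853 at 12 h and 14022 and 13827 at 24 h. Treated libraries were below the untreated ones by a margin that did not pass (12 h difference -0.086 ± 0.030, limma adjusted p = 0.0943).

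Tet1 and Tet2, the main oxidases of embryonic stem cells, moved in opposite directions too. Tet1 had 5024 and 5493 untreated, 8699 and 8381 at 12 h and 7282 and 6506 at 24 h. It was highest at 12 h, with a log2 change of 0.70 ± 0.066 (SE; limma adjusted p = 0.000799) from untreated, and 0.39 ± 0.066 (SE; limma adjusted p = 0.00685) at 24 h. Tet2 had 2421 and 2465 untreated, 2049 and 1916 at 12 h and 1618 and 1698 at 24 h. No groups overlapped, and Tet2 differed from untreated by -0.30 ± 0.057 (SE; limma adjusted p = 0.0127) at 12 h and -0.56 ± 0.057 (SE; limma adjusted p = 0.000876) at 24 h. Tet3 had 379 and 457, 409 and 431 and 413 and 466 at the 3 times, with overlapping libraries and no call. The interval of its 12 h difference ran from -0.28 to 0.30 on the log2 scale.

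Between 12 h and 24 h none of the 8 was called by limma, beside 0.146% of all genes (0.0876% higher and 0.0584% lower), and 2 had an unadjusted p under 0.05, as did 14.1% of all genes. These were Tet1 at -0.31 ± 0.066 (limma adjusted p = 0.125) and Tet2 at -0.26 ± 0.057 (limma adjusted p = 0.134). When 1 of the 4 libraries was left out, 3 of the 8 remained called at 12 h in each fit. Dnmt1 lost its call in every such fit, Tet2 in each except that without 12 h replicate 1, and Dnmt3a without 12 h replicate 1 (limma adjusted p = 0.0517). Summed markers of formative or primed epiblast, 3 of 5 listed and none of these at 0, were 83.0 to 85.3 in untreated, 179 to 192 in 12 h and 277 to 301 in 24 h libraries, and their part in these changes was not tested.

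**Figure D2:**
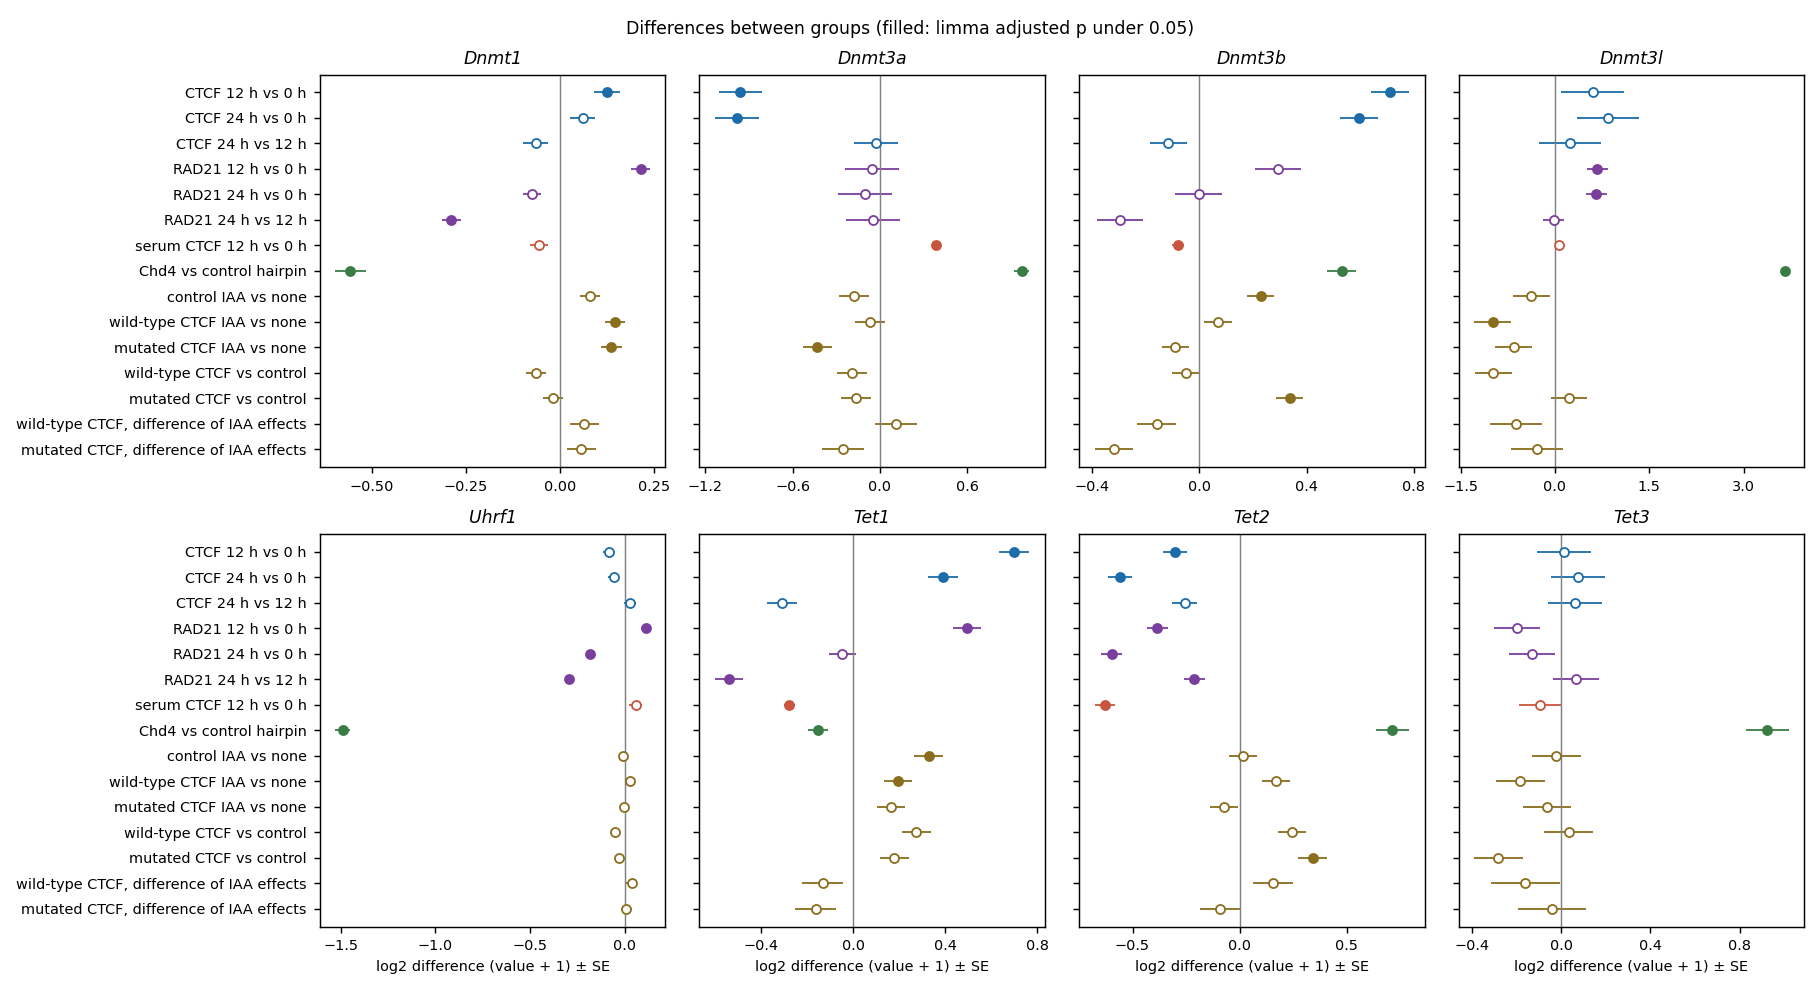
Log2 difference of each gene in 15 comparisons, on log2(normalised count + 1), with 1 standard error on each side, coloured by table as in the plot of levels. Filled points passed the limma test at an adjusted p under 0.05, and the horizontal scales differ between genes; the 8 genes are all filled in the Chd4 row.

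In serum cells 12 h of IAA gave 4 calls among the 8 genes, beside 17.0% of the 14494 genes tested (7.73% higher and 9.25% lower). Dnmt3a rose, and Tet2, Tet1 and, by a small margin, Dnmt3b fell. The median of the 8 was -0.07 beside -0.00022 over all genes. Dnmt3a had 3763 and 3785 untreated and 4909.8 and 4971 after IAA, a log2 change of 0.39 ± 0.028 (SE; limma adjusted p = 0.000214). This is the opposite sign from the serum-free table, and the libraries did not overlap in either. Dnmt3b had 7952 and 7879.6 untreated and 7459.5 and 7518 after IAA. Its difference of -0.080 ± 0.022 (SE; limma adjusted p = 0.0478) passed the threshold narrowly, and in each fit that left out 1 library it was not called (limma adjusted p = 0.103 to 0.193).

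Tet1 had 16666 and 17013 in untreated serum libraries and 13562 and 14219 after IAA, lower in both, with a log2 change of -0.28 ± 0.025 (SE; limma adjusted p = 0.000559). Tet2 had 3609 and 3546 and then 2414 and 2212, a difference of -0.63 ± 0.047 (SE; limma adjusted p = 0.000242). Tet2 was therefore lower after 12 h of IAA in both the serum and the serum-free table. Dnmt3l, abundant here, had 5040.0 and 4937 and then 5265 and 5209.7. Both treated libraries were higher, but the difference of 0.070 ± 0.027 did not pass (limma adjusted p = 0.125), and the interval limits it to 0.0067 to 0.13 on the log2 scale. Dnmt1 went from 6267 and 6229 to 6038 and 5991 and Uhrf1 from 4519 and 4423 to 4746 and 4555, without a call. Tet3 libraries overlapped, at 408 and 356 and 354 and 359. The difference between the serum and serum-free responses was not tested, because the tables were normalised separately. Summed formative markers, 4 of 5 listed, were 726 to 766 before and 1008 to 1015 after IAA in serum, and their part in these changes was not tested.

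After 12 h of 5-Ph-IAA in RAD21 AID cells, 5 of the 8 genes were called, beside 13.0% of the 13738 genes tested (6.66% higher and 6.35% lower). Dnmt1, Uhrf1, Tet1 and Dnmt3l rose and Tet2 fell, with a median of 0.16 beside -0.00059 over all genes. At 24 h 3 were called, beside 13.7% of all genes (6.54% higher and 7.16% lower): Dnmt3l was higher, and Uhrf1 and Tet2 were lower than untreated. From 12 h to 24 h, Dnmt1, Uhrf1, Tet1 and Tet2 fell, 4 of the 8, beside 15.9% of all genes (7.67% higher and 8.26% lower). The Tet2 call from 12 h to 24 h was lost in every fit that left out 1 library (limma adjusted p = 0.0697 to 0.124). These 3 comparisons share libraries, so their values are given side by side.

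Dnmt1 had 9567 and 9399 untreated, 10903 and 11098 at 12 h and 8926 and 9092 at 24 h. The 12 h libraries were the highest of all 3 groups, with a log2 change of 0.21 ± 0.025 (SE; limma adjusted p = 0.00395) from untreated and -0.29 ± 0.025 (SE; limma adjusted p = 0.000744) from there to 24 h. Uhrf1 was also highest at 12 h and lowest at 24 h, with 15069.9 and 14826, then 16357 and 15889.8, then 13097 and 13223. Its 12 h difference was 0.11 ± 0.022 (SE; limma adjusted p = 0.0248), its 24 h difference -0.18 ± 0.022 (SE; limma adjusted p = 0.00379), and its change from 12 h to 24 h -0.29 ± 0.022 (SE; limma adjusted p = 0.000514). Genes of S phase, the part of the cell cycle in which DNA is copied and DNMT1 acts, moved beside them. Of 7 such genes, 4 were called higher at 12 h, beside 6.66% of all genes. At 24 h 5 were called lower, beside 7.16% of all genes, and from 12 h to 24 h 6, beside 8.26%. Mcm5, a subunit of the replicative helicase, went from 10279 to 11305 (log2 0.14, limma adjusted p = 0.0248) at 12 h, and from 11305 to 8306 (log2 -0.44, limma adjusted p = 0.000249) between 12 h and 24 h. The part of this list in the changes of Dnmt1 and Uhrf1 was not tested. Summed fibroblast markers, 2 of 5 listed and neither at 0 in a whole group, were 34.6 in both untreated libraries, 44.6 to 54.5 at 12 h and 66.5 to 111 at 24 h, and their part was not tested.

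Tet1 peaked at 12 h as well, with 5748 and 5641 untreated, 8356 and 7701 at 12 h and 5203 and 5836 at 24 h. The 24 h libraries overlapped the untreated ones. Its difference was 0.49 ± 0.061 (SE; limma adjusted p = 0.00460) at 12 h and -0.54 ± 0.061 (SE; limma adjusted p = 0.00225) from 12 h to 24 h. Tet2 had 2170.1 and 2097, 1631 and 1637 and 1387 and 1434, lower at each time with no overlap. It differed from untreated by -0.38 ± 0.049 (SE; limma adjusted p = 0.00524) at 12 h and -0.60 ± 0.049 (SE; limma adjusted p = 0.000951) at 24 h. Tet2 was the only one of the 8 called lower after loss of CTCF at 12 h and 24 h, after loss of CTCF in serum, and after loss of RAD21 at 12 h and 24 h. It was not lower after 12 h of IAA in the overexpression control (0.017, limma adjusted p = 0.879). Tet3 had 468 and 438, 411 and 379 and 436 and 390.2, with no call.

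Dnmt3l had 83.2 and 75.9 untreated, 122 and 134 at 12 h and 133 and 119 at 24 h, higher in all treated libraries. The differences of 0.68 ± 0.17 (SE; limma adjusted p = 0.0425) and 0.66 ± 0.17 (SE; limma adjusted p = 0.0442) were close to the threshold, and in fits that left out 1 library neither was called (limma adjusted p = 0.102 to 0.181). Dnmt3b had 434 and 455, 553 and 537 and 459 and 429. The 12 h libraries were the highest, but the difference of 0.29 ± 0.087 did not pass (limma adjusted p = 0.0711). Dnmt3a had 509.7 and 474, 389 and 577 and 496 and 423, and its groups overlapped. The interval of its 12 h difference was -0.49 to 0.38, beside a difference of -0.96 after CTCF loss in serum-free cells. The contrast between these tables was not tested. Uhrf1 at 12 h was not called when any 1 library was left out (limma adjusted p = 0.0545 to 0.116), so that 3 of the 8 remained called at 12 h.

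With the Chd4 hairpin all 8 genes were called, but so were 67.4% of the 15499 genes tested (33.5% higher and 33.8% lower), so the count alone does not set the members apart. Dnmt3l, Dnmt3a, Tet3, Tet2 and Dnmt3b rose, and Uhrf1, Dnmt1 and Tet1 fell. The median of the 8 was 0.62 beside 0.0062 over all genes.

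Dnmt3l had 464 and 455 with the control hairpin and 5828 and 5862 with the Chd4 hairpin, a ratio of 12.7 and a log2 change of 3.67 ± 0.053 (SE; limma adjusted p = 1.07e-06). Among all genes tested, 96.5% had a log2 difference at or below it. Dnmt3a went from 1373 and 1377 to 2771 and 2637, a difference of 0.97 ± 0.054 (SE; limma adjusted p = 1.34e-05). Dnmt3b went from 1423 and 1423 to 2015 and 2098, a difference of 0.53 ± 0.054 (SE; limma adjusted p = 0.000169). The 3 genes of de novo methylation were thus higher in both Chd4 hairpin libraries.

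Both maintenance genes were lower. Uhrf1 went from 11585 and 11696 to 4116 and 4178, with -1.49 ± 0.040 (SE; limma adjusted p = 1.87e-06), and 5.26% of all genes tested had a difference at or below it. Dnmt1 went from 10652 and 10542 to 7089 and 7323, with -0.56 ± 0.040 (SE; limma adjusted p = 3.77e-05). The erasers split, with Tet3 going from 280.4 and 278 to 556 and 506, a difference of 0.92 ± 0.097 (SE; limma adjusted p = 0.000192). Tet2 went from 504 and 482 to 832 and 787, a difference of 0.71 ± 0.077 (SE; limma adjusted p = 0.000225). Tet1 went from 7536 and 7602 to 6970.0 and 6629, a difference of -0.16 ± 0.044 (SE; limma adjusted p = 0.0168). Under quantile normalisation Tet1 was at -0.01 and not called (limma adjusted p = 0.881), and it was not called without control hairpin replicate 1 or 2 (limma adjusted p = 0.0859 and 0.108).

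The Chd4 hairpin libraries also differed in markers of cell state. Values for markers of formative or primed epiblast, 4 of 5 listed, are not given here. Summed embryonic stem cell markers were 72363 to 72589.5 with the control and 53669 to 54466 with the Chd4 hairpin (7 of 7 listed). Summed markers were 99.8 to 117 and 323 to 352 for primitive endoderm (5 of 5 listed), 256 to 305 and 744 to 828 for trophoblast (2 of 5), 239.5 to 316 and 569.6 to 659 for fibroblasts (4 of 5), and 26.7 to 28.5 and 711 to 716 for 2-cell-like cells (4 of 5). None of the listed markers was at 0 in every library of a group. Their part in the changes of the 8 genes was not tested.

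The overexpression libraries set the response to IAA with added CTCF beside that of control cells. In control cells 2 of the 8 genes were called after IAA, beside 25.3% of the 13938 genes tested (12.8% higher and 12.5% lower), a share close to that of all genes. Those were Dnmt3b, from 2004 and 1997 to 2324 and 2366 with 0.23 ± 0.051 (SE; limma adjusted p = 0.00747), and Tet1, from 6988 and 7987 to 9082 and 9679 with 0.33 ± 0.062 (SE; limma adjusted p = 0.00304). Both rose, as in the serum-free degradation table, and by less. Dnmt3a had 888 and 943 without and 888 and 738 with IAA. The libraries overlapped narrowly, and the difference of -0.18 ± 0.10 did not pass (limma adjusted p = 0.241). Tet2 had 1674 and 1638 without and 1715 and 1636 with IAA, overlapping. Its interval was -0.13 to 0.16, beside a difference of -0.30 in the degradation table, and the contrast between these tables was not tested.

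Several markers of cell state moved beside these values. In control cells the embryonic stem cell genes Sox2, Esrrb and Pou5f1 fell and Tdgf1 rose after IAA. Pdgfra, a primitive endoderm marker, went from a mean of 22.9 to 66.7 (limma adjusted p = 0.00887), and Krt8, a trophoblast marker, from 165 to 109 (limma adjusted p = 0.00545). Summed markers without and with IAA were 71128 to 73265 and 69698 to 70019.7 for embryonic stem cells (7 of 7 listed), 36.7 to 60.9 and 94.4 to 109 for primitive endoderm (3 of 5), and 283 to 300.2 and 213 to 231 for trophoblast (3 of 5). They were 347 to 401 and 289 to 293 for formative or primed epiblast (3 of 5), 21.4 to 50.5 and 20.2 to 21.6 for fibroblasts (2 of 5), and 3.14 to 6.13 and 6.45 to 8.93 for 2-cell-like cells (1 of 5). Primitive endoderm markers summed to 59.6 to 88.3 without and 63.2 to 77.1 with IAA for wild-type CTCF, and to 54.3 to 55.7 and 153 to 195 for mutated CTCF. No listed marker was at 0 in both libraries of a group, and their part in the changes of the 8 genes was not tested.

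With wild-type CTCF, 3 of the 8 were called after IAA, beside 21.4% of all genes (11.1% higher and 10.3% lower), and with mutated CTCF 2, beside 16.2% of all genes (8.31% higher and 7.92% lower). Dnmt1 was called in both. It went from 9389 and 9181 to 10381 and 10159 with wild-type CTCF, with 0.15 ± 0.027 (SE; limma adjusted p = 0.00341). With mutated CTCF it went from 9683 and 9462 to 10393 and 10656, with 0.14 ± 0.027 (SE; limma adjusted p = 0.00593). In control cells its difference of 0.080 ± 0.027 narrowly missed the threshold (limma adjusted p = 0.0509). Tet1 had 9284 and 8785 and then 10638 and 10028 with wild-type CTCF, with 0.19 ± 0.062 (SE; limma adjusted p = 0.0486). Dnmt3l had 19.5 and 26.2 and then 9.24 and 12.8, with -0.99 ± 0.29 (SE; limma adjusted p = 0.0339). Dnmt3a had 789 and 842 and then 594 and 617 with mutated CTCF, with -0.43 ± 0.10 (SE; limma adjusted p = 0.0163).

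Several of these calls depended on single libraries. With wild-type CTCF, Tet1 was not called when any 1 library was left out (limma adjusted p = 0.0717 to 0.234), and Dnmt3l stayed called only without wild-type replicate 1. Without replicate 2 of untreated wild-type CTCF or replicate 1 of treated wild-type CTCF, Dnmt3l was at -0.79 and -0.78 (limma adjusted p = 0.176 for both). With mutated CTCF, Dnmt3a stayed called only without mutated replicate 1, and Dnmt1 lost its call without mutated replicate 2 or treated mutated replicate 2 (limma adjusted p = 0.0519 and 0.0584). All differences between treated and untreated wild-type or mutated CTCF rest on the 4 libraries with conflicting labels and cannot be had without them.

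The interaction, that is the IAA effect in overexpressing cells minus that in control cells, was called for 0 of the 8 with wild-type CTCF beside 1.41% of all genes (1.10% higher and 0.309% lower) and for 0 with mutated CTCF beside 1.64% of all genes (1.05% higher and 0.581% lower), by limma. At an unadjusted p under 0.05 there was 1 in each, Dnmt3b, beside 11.8% of all genes with wild-type and 12.5% with mutated CTCF. With mutated CTCF the Dnmt3b difference was -0.32 ± 0.072 (interval -0.48 to -0.16, limma adjusted p = 0.0607). Its libraries had 2490.2 and 2564 without and 2338 and 2413 with IAA, beside 2004 and 1997 and 2324 and 2366 in the control. It was called when testing was limited to genes whose mean reached 100 (limma adjusted p = 0.0486) and when only the 4 groups compared were fitted (limma adjusted p = 0.0390). With wild-type CTCF the Dnmt3b difference was -0.16 ± 0.072 (interval -0.32 to -0.00053, limma adjusted p = 0.422). For Tet1 the intervals were -0.33 to 0.061 with wild-type and -0.36 to 0.030 with mutated CTCF, so neither a smaller nor an equal response was shown. For Dnmt3l the intervals, -1.53 to 0.29 and -1.19 to 0.63, were the widest.

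Without IAA, wild-type CTCF against control gave no call among the 8 by limma, beside 0.897% of all genes (0.502% higher and 0.395% lower), and 5 of the 8 had an unadjusted p under 0.05, as did 12.3% of all genes. Dnmt3l was at 49.9 and 41.6 in control and 19.5 and 26.2 with wild-type CTCF, a difference of -0.98 ± 0.29 that did not pass (limma adjusted p = 0.200) although the libraries did not overlap. Tet1 was at 6988 and 7987 and 9284 and 8785, a difference of 0.27 ± 0.062 (limma adjusted p = 0.0898). It was called without control replicate 2 (limma adjusted p = 0.0319). With treatment labels in place of titles, the 4 wild-type libraries all count as untreated. The Dnmt3l difference from control was then -1.47 (limma adjusted p = 0.384) and that of Tet1 0.37 (limma adjusted p = 0.238), with none of the 8 called. Mutated CTCF against control gave 2 calls, beside 5.55% of all genes (3.31% higher and 2.24% lower). Dnmt3b stood at 2490.2 and 2564, above both control libraries, with 0.34 ± 0.051 (SE; limma adjusted p = 0.00375). Tet2 stood at 2058 and 2137 beside 1674 and 1638 in control, with 0.34 ± 0.066 (SE; limma adjusted p = 0.0143), and lost its call when any 1 library was left out (limma adjusted p = 0.0521 to 0.0931). By the treatment label these mutated CTCF libraries had IAA, and then no untreated mutated CTCF group exists.

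Ratios within a library do not depend on its scaling. The ratio of Dnmt3a to Dnmt3b was 0.940 and 1.07 in untreated serum-free CTCF AID libraries, 0.301 and 0.329 after 12 h and 0.402 and 0.279 after 24 h of IAA. All treated libraries were below all untreated ones. In serum it was 0.473 and 0.480 before and 0.658 and 0.661 after IAA, a shift in the other direction. In the overexpression control it was 0.443 and 0.472 before and 0.382 and 0.312 after IAA, the same direction as in the serum-free table.

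The ratio of Tet2 to Tet1 was 0.482 and 0.449 in untreated serum-free CTCF AID libraries, 0.236 and 0.229 at 12 h and 0.222 and 0.261 at 24 h. In RAD21 AID libraries it was 0.378 and 0.372, then 0.195 and 0.213, then 0.267 and 0.246. In serum it was 0.217 and 0.208 and then 0.178 and 0.156. The treated libraries had the lower ratio in each of these tables. The Chd4 hairpin went the other way, from 0.0669 and 0.0634 to 0.119 and 0.119. The ratio of Uhrf1 to Dnmt1 was 1.86 and 1.80 in untreated serum-free CTCF AID libraries and 0.721 and 0.710 in untreated serum ones. It was below 1 in the serum and the Chd4 hairpin libraries only, the latter at 0.581 and 0.571 beside 1.09 and 1.11 in the control. These ratios of counts are not corrected for gene length and were not tested.

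**Figure D3:**
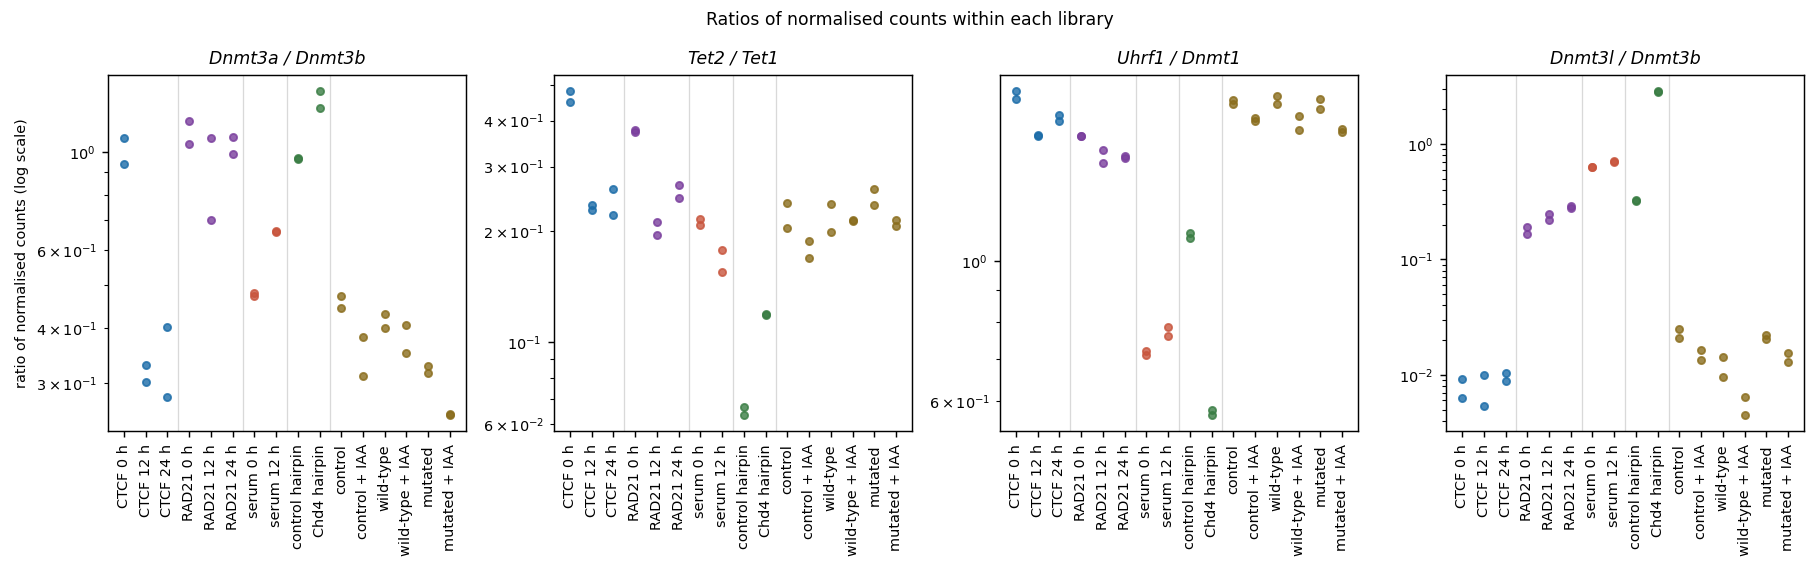
Ratios of normalised counts within each library (log axis) for 4 gene pairs, 1 point per library, with groups and colours as in the plot of levels. The ratio of Uhrf1 to Dnmt1 is below 1 in the serum and Chd4 hairpin libraries and above 1 in the rest.

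Likeness to other genes was measured as Pearson's r of log2 values centred on each table's mean, over the 28 libraries outside the hairpin table and the 8997 genes whose mean reached 100 in each of those tables. The libraries share scaling and treatments, so r is a description. The gene most like Tet1 was Trim71 (r = 0.929), most like Dnmt1 was Caprin1 (0.924) and most like Uhrf1 was Tuba1c (0.879). Tet2 was most like 2700081O15Rik (0.841), Dnmt3a most like Nsdhl (0.814) and Tet3 most like Eno3 (0.715). Dnmt3l was below the level this required. Within single tables r was uneven. Uhrf1 with Tuba1c had 0.995 in the RAD21 table, 0.535 in the CTCF degradation table and 0.00813 in the overexpression table. Dnmt3a with Nsdhl had 0.205 in the RAD21 table, and Tet3 with Eno3 had -0.312 in the serum table. Tet1 with Trim71 ranged from 0.845 to 0.981 over the tables, and Dnmt1 with Caprin1 from 0.734 to 0.982. Among the members themselves, Dnmt1 and Tet1 had an r of 0.756 and Dnmt3a and Dnmt3b an r of -0.673.

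Other genes of the pathway were counted in 7 lists, and each count stands beside the share of all genes called in that comparison and is no result about the list where the shares are close. Counts of 1 or 2 genes are too small to set a list apart. After CTCF loss in serum-free cells 17.8% of all genes (9.39% higher and 8.40% lower) were called at 12 h and 22.5% of all genes (11.7% higher and 10.8% lower) at 24 h. After 12 h of CTCF loss in serum-free cells, recruiters and chromatin cofactors of methylation rose in 6 of 12 and fell in none, with a median of 0.18. Zfp57, which recruits methylation to imprinted loci, went from 3538 to 6618 (log2 0.90, limma adjusted p = 0.000191). Lin28a, an RNA-binding protein that the list as written counts among these 6, went from 166 to 436 (log2 1.39, limma adjusted p = 0.000652). Of 4 antagonists, 2 rose and 1 fell: Dppa3 went from 153 to 425 (log2 1.47, limma adjusted p = 0.000218) and Kdm2b, which binds unmethylated CpG islands, from 998 to 1444 (log2 0.53, limma adjusted p = 0.00272), while Prdm14 went from 966 to 677 (log2 -0.51, limma adjusted p = 0.00336). Dppa3 was the list gene called higher again between 12 h and 24 h, from 425 to 777 (log2 0.87, limma adjusted p = 0.0337). Of 9 readers, 2 rose and none fell, and of 12 repair genes 1 rose and 1 fell. Among 14 genes of one-carbon and cofactor supply 2 rose and 2 fell, and Idh1, which makes the cofactor of TET enzymes, went from 5116 to 3370.3 (log2 -0.60, limma adjusted p = 0.000339). Of 7 S phase partners 1 rose and 3 fell. Of 8 germline genes tested, none rose and Sycp3 fell at 12 h, and 4 had fallen at 24 h.

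After IAA in serum 17.0% of all genes (7.73% higher and 9.25% lower) were called, and after loss of RAD21 13.0% of all genes (6.66% higher and 6.35% lower) at 12 h and 13.7% of all genes (6.54% higher and 7.16% lower) at 24 h. In serum, Prdm14 went from 182 to 107 (log2 -0.76, limma adjusted p = 0.0208), and recruiters rose in 3 of 12 and fell in 2. Of 7 S phase partners 1 rose and 2 fell. Germline genes rose in 2 of 8 and fell in none, with Mael going from 146 to 339 (log2 1.22, limma adjusted p = 0.000864). Readers rose in 2 of 9 and fell in none, repair genes rose in 1 of 12 and fell in 3, and supply genes rose in 3 of 14 and fell in 3. After 12 h of RAD21 loss germline genes rose in 4 of 10 and fell in none, with Dazl going from 3113 to 6478 (log2 1.06, limma adjusted p = 0.000180). Dazl then went from 6478 to 3032 (log2 -1.10, limma adjusted p = 9.09e-05) between 12 h and 24 h. At 12 h recruiters rose in 4 of 12 and fell in 1, repair genes rose in 3 of 12 and fell in 1, and 1 of 9 readers rose and none fell. At 24 h recruiters rose in 1 of 12 and fell in 4. Supply genes rose in 1 of 14 and fell in 5 at 12 h, and Mat2a, which makes the methyl donor, went from 4272 to 2837 (log2 -0.59, limma adjusted p = 0.00149).

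With the Chd4 hairpin the germline list rose in 7 of 10 and fell in 2, with a median of 1.78 beside 0.0062 over all genes. Taf7l, a germ cell transcription factor subunit, went from 107 to 2952 (log2 4.78, limma adjusted p = 1.32e-06). Supply genes fell in 10 of 14 and rose in 2, and Ahcy, which clears the product of methylation, went from 3205 to 1240.2 (log2 -1.37, limma adjusted p = 8.61e-06). Readers fell in 5 of 9 and rose in 1, and recruiters fell in 6 of 12 and rose in 2. Cdca7, a partner of the remodeller HELLS, went from 4451 to 2061 (log2 -1.11, limma adjusted p = 5.74e-06). Repair genes fell in 5 of 12 and rose in 3, and S phase partners fell in 4 of 7 and rose in 2. Dppa3 went from 1692 to 3237 (log2 0.93, limma adjusted p = 1.75e-05) and Prdm14 from 694 to 327 (log2 -1.09, limma adjusted p = 0.000164). These counts stand beside the 67.4% of all genes called in that comparison.

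After IAA 25.3% of all genes (12.8% higher and 12.5% lower) were called in the overexpression control, 21.4% of all genes (11.1% higher and 10.3% lower) in cells with the wild-type form and 16.2% of all genes (8.31% higher and 7.92% lower) in cells with the mutated form. Without IAA, 0.897% of all genes (0.502% higher and 0.395% lower) were called for the wild-type form against control and 5.55% of all genes (3.31% higher and 2.24% lower) for the mutated form. In the overexpression control after IAA, recruiters rose in 7 of 12 and fell in 2, and germline genes rose in 3 of 8 and fell in none. Dppa3 went from 369.8 to 945 (log2 1.35, limma adjusted p = 4.82e-06). Its rise was also called with wild-type CTCF, from 242 to 352 (log2 0.55, limma adjusted p = 0.00276), and with mutated CTCF, from 397 to 796 (log2 1.00, limma adjusted p = 0.000104). Kdm2b went from 1430.1 to 1169 (log2 -0.29, limma adjusted p = 0.0190) with wild-type and from 1432 to 953 (log2 -0.59, limma adjusted p = 0.000497) with mutated CTCF. In the overexpression control it went from 1301 to 1174 (log2 -0.15), without a call (limma adjusted p = 0.173). These differences all had the opposite sign from the serum-free degradation table. Recruiters rose in 6 of 12 with wild-type and 2 of 12 with mutated CTCF after IAA, and germline genes in 2 and 5 of 8, with no falls in either list. Without IAA, mutated CTCF against control raised 4 of 12 recruiters and lowered 2 of 8 germline genes, and wild-type CTCF lowered Dppa3 and Dazl.

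**Figure D4:**
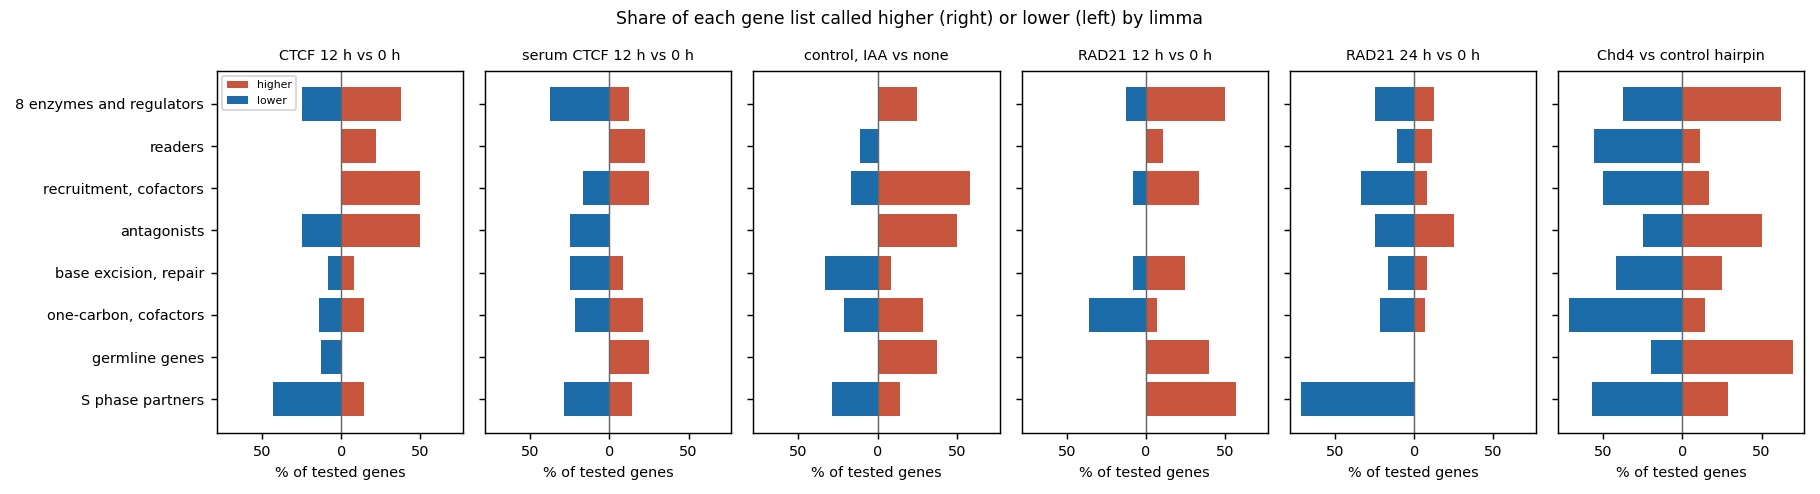
Share of tested genes (percent) called higher (right, red) or lower (left, blue) by limma in the 8 genes and 7 pathway lists, 1 panel per comparison. S phase partners lie to the right at 12 h and to the left at 24 h of RAD21 loss, and germline genes reach furthest right with the Chd4 hairpin.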

How the data were processed

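RNA was sequenced after mRNA purification and fragmentation, per the labels' protocols. Per the submitters' processing notes the authors used Trim Galore, Bowtie2, STAR, RSEM and DESeq2 with mm10, and no roles or versions are given. The deposited values are normalised counts, a signal that is never negative. Their low values did not fall on whole multiples of one step (coherence 0.293 to 0.527), so reads were not recovered, depth is unknown and no count test was run.

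For each table, log2(value + 1) of genes averaging 10 or more went into one limma model (version 3.58.1, R 4.3.3) covering every group, with a mean trend, Benjamini-Hochberg adjustment over all genes tested and calls at 0.05. Log2 differences understate changes of low genes. Tests stayed within a table, because tables were normalised separately. One incomplete last line of the CTCF degradation table was dropped, and 0 columns were unmapped. Fitting code was tested on simulated data.

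The 8 genes, the pathway lists and the marker lists were chosen with earlier results of these data known. For each list and comparison, up to 2 rising and 2 falling genes could be named: the called ones with the greatest change whose higher group averaged 100 or more. Some of these are printed. Exceptions to this rule were made for IAA in the overexpression control. There all called embryonic stem cell markers are named, and Pdgfra is named although its higher group averaged 66.7. Kdm2b is given there without a call. Marker sums are likewise printed for some lists and comparisons only. Alternatives were quantile and trimmed-mean rescaling, a pseudocount of 5, filters at 0 and 100, fits of only the groups compared, a replicate block, treatment-label groups, gene length, and leaving out each library. The gene most like Dnmt3b is not reported here.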

Additional observations from a re-analysis of the deposited data

Results flagged for a closer look

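The response to 12 h of IAA went in opposite directions in serum-free and serum CTCF AID cells for 5 of the 8 genes, with every treated library on one side of the untreated ones in each table. The log2 differences, serum-free first, were -0.96 and 0.39 for Dnmt3a, 0.71 and -0.080 for Dnmt3b, 0.70 and -0.28 for Tet1, 0.12 and -0.055 for Dnmt1, and -0.086 and 0.057 for Uhrf1. The same held between the serum cells and the serum-free overexpression control for 4 of the 8. Of all genes tested in both tables, 15.5% of 12959 met the same condition between serum-free and serum cells, and 12.3% of 13181 between serum cells and the overexpression control. Those differences, serum first, were -0.28 and 0.33 for Tet1, -0.080 and 0.23 for Dnmt3b, -0.055 and 0.080 for Dnmt1, and 0.070 and -0.38 for Dnmt3l. None of these contrasts between tables was tested, since the tables were normalised separately. Of the differences listed, those of Uhrf1, both of Dnmt3l and those of Dnmt1 in serum and in the overexpression control did not pass limma's test within their own table.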

How the results depend on the processing

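All 120 differences of the 8 genes were refitted under each alternative that applied. Of the 42 called as reported, 28 were called in each fit that left out 1 library. Of all refits, 42 reversed a sign, and 0 of these concerned a called difference. Under quantile normalisation the reversals were Dnmt3b for RAD21 24 h against 0 h (0.0019), Tet3 for IAA in the overexpression control (0.023) and Uhrf1 for IAA with mutated CTCF (0.011). With groups from the treatment label, wild-type CTCF against control reversed for Dnmt1 (0.0093) and Tet3 (-0.059). The number of members called for the mutated CTCF interaction became 1 (Dnmt3b) with a filter at a mean of 100 and with only the compared groups fitted. Quantile normalisation ended the calls of Dnmt1 after 12 h of CTCF loss (limma adjusted p = 0.221), Uhrf1 after 12 h of RAD21 loss (0.246), Dnmt3b in serum (0.270), Tet1 with the Chd4 hairpin (0.881) and Tet1 for IAA with wild-type CTCF (0.134). It added Uhrf1 after 12 h and 24 h of CTCF loss (0.0123 and 0.0169) and Dnmt3l in serum (0.0241). Fitting only the compared groups ended the calls of Dnmt3l after 12 h and 24 h of RAD21 loss (0.0669 and 0.0754), Tet2 from 12 h to 24 h (0.0518) and Dnmt3l for IAA with wild-type CTCF (0.154).

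Replicate numbers did not pair the libraries: over 23 pairs of groups, deviations of libraries with the same number correlated between -0.0634 and 0.102, 1 above 0.1. With the replicate block no count of members called moved by over 1.5 times, 5 differences lost their call and 1 gained it. Those lost were Dnmt3l for RAD21 12 h and 24 h (limma adjusted p = 0.0668 and 0.0691), Tet2 for RAD21 24 h against 12 h (0.0514), Dnmt3b in serum (0.0510) and Tet1 for IAA with wild-type CTCF (0.0587), and Dnmt1 for IAA in the overexpression control was gained (0.0435).

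Leaving out 1 library at a time, the number of members called was 3 in every such fit for CTCF 12 h against 0 h and for RAD21 12 h against 0 h. It ranged from 1 to 2 for IAA with wild-type CTCF, 0 to 2 for IAA with mutated CTCF, 0 to 1 for wild-type CTCF against control and 1 to 2 for mutated CTCF against control. Fewer libraries leave fewer residual degrees of freedom, and a lone library is assumed to vary like the other groups. Differences that changed sign, none of them called, ranged as follows. For CTCF 12 h against 0 h, Tet3 from -0.12 to 0.15. For CTCF 24 h against 0 h, Tet3 from -0.061 to 0.21. For CTCF 24 h against 12 h, Dnmt3a from -0.22 to 0.17, Dnmt3l from -0.20 to 0.68 and Tet3 from -0.025 to 0.15. For RAD21 12 h against 0 h, Dnmt3a from -0.34 to 0.23. For RAD21 24 h against 0 h, Dnmt3a from -0.22 to 0.013, Dnmt3b from -0.052 to 0.047 and Tet1 from -0.13 to 0.036. For RAD21 24 h against 12 h, Dnmt3a from -0.33 to 0.24, Dnmt3l from -0.097 to 0.058 and Tet3 from -0.015 to 0.15. For IAA in serum, Tet3 from -0.19 to 0.0011. For IAA in the overexpression control, Uhrf1 from -0.023 to 0.0026, Tet2 from -0.017 to 0.051 and Tet3 from -0.050 to 0.0051. For wild-type CTCF against control, Dnmt3b from -0.12 to 0.024 and Tet3 from -0.043 to 0.11. For mutated CTCF against control, Dnmt1 from -0.042 to 0.0035. For the wild-type CTCF interaction, Dnmt3a from -0.026 to 0.24. For the mutated CTCF interaction, Uhrf1 from -0.0059 to 0.020 and Tet3 from -0.19 to 0.11. For IAA with wild-type CTCF, Dnmt3a from -0.20 to 0.067 and Dnmt3b from -0.0035 to 0.14. For IAA with mutated CTCF, Uhrf1 from -0.013 to 0.0069 and Tet3 from -0.22 to 0.086.

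Precision is limited by 2 libraries a group and, for Dnmt3l in the CTCF degradation table and with wild-type CTCF after IAA, by values near the filter. The serum label and the growth protocol disagree, and the overexpression results rest partly on libraries with conflicting labels. The per-kilobase orders also depend on the transcript length used.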
